A study of Mus musculus with 12 samples.

Results

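MicroRNA levels in mouse embryonic fibroblasts that lacked XBP1 were compared with those in wild type fibroblasts after 24 h of tunicamycin. The comparison rested on 4 of the 12 arrays of the series, 2 of knockout cells and 2 of wild type cells, taken by genotype, treatment and time as the labels give them. Both groups were embryonic fibroblasts of the C57BL/6 background, with the genotype labelled XBP1KO or XBP1WT, and both had received 2 ug/mL tunicamycin for 24 h. The other arrays held the same genotypes without tunicamycin and after 12 h, with 2 arrays per group, and are used here only to set the 24 h difference beside the earlier ones. The 2 arrays of a group are labelled as independent experiments, so the spread below is that between experiments. The kind of Xbp1 allele and the number of embryos or lines behind each genotype are not given in the sources used here, so an effect of the genotype and a difference between lines cannot be told apart.

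XBP1 is a transcription factor through which cells answer unfolded proteins. The endoplasmic reticulum sensor IRE1 splices its mRNA when unfolded proteins accumulate, and the spliced form switches on genes for protein folding, secretion and degradation. Tunicamycin starts this response by blocking N-linked glycosylation. MicroRNAs are short RNAs that repress mRNAs carrying a match to their seed, bases 2 to 8 of the mature strand, so miRNAs that share a seed have overlapping targets. Each hairpin precursor can give a mature strand from both of its arms, and the arm named with an asterisk is the one that is usually the less abundant.

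The sequences shown are those on which the results turn, with the seed in capitals, from RefSeq's table on the assembly GRCm38.p6. Of the 20 miRNAs that passed the test, 18 were matched there. The first pair holds both arms of the miR-31 hairpin, which were both lower in knockout cells. On chromosome 4, minus strand, they lie at chr4:88910614-88910635 and chr4:88910577-88910599. miR-155, at chr16:84714143-84714165 on the plus strand, was also lower, and miR-196b, at chr6:52230129-52230150 on the minus strand in a Hox gene cluster, was higher.
miR-31: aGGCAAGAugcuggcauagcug
miR-31*: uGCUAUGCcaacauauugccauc
miR-155: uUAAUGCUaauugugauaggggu
miR-196b: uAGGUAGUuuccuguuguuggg

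The next set is shown because it holds miRNAs that share a seed. miR-322, on the X chromosome, and miR-497 and miR-195, neighbours on chromosome 11, share the seed AGCAGCA with miR-15b, yet miR-322 was higher and miR-497 lower in knockout cells. miR-152 and miR-148a share CAGUGCA and had differences of opposite sign. miR-103 and miR-107 share GCAGCAU and differ in a single base, G22C counted from the 5′ end of miR-103, and signal from one on the probes of the other was not tested. miR-221 and miR-222, neighbours on the X chromosome, share GCUACAU.
miR-322: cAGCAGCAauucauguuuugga
miR-497: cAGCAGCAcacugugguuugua
miR-195: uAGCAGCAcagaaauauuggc
miR-15b: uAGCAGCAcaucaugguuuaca
miR-152: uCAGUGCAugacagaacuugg
miR-148a: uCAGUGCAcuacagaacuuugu
miR-103: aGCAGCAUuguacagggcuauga
miR-107: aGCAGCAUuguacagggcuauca
miR-221: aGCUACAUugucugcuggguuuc
miR-222: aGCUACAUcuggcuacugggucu

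Levels are log2 scaled signals. The processed intensities of a miRNA's spots were averaged per probe and summed over its probes, each array was scaled to equal 75th percentiles, and values under a floor of 3.33 were set to it. A difference is knockout minus wild type on this log2 scale, so that 1 is a doubling. A pair is the knockout and the wild type array of 1 replicate number, which were also scanned in 1 session: replicate 1 in 1 scan and replicate 2 in another, all 4 on 1 slide. The array-position code in the file headers began with 1 on each wild type array and with 2 on each knockout array, so position and genotype cannot be told apart.

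The 4 arrays differed in brightness. The wild type arrays had total unscaled signals of 14100 and 32700 and detected 120 and 158 mouse miRNAs, and the knockout arrays had 35500 and 41900 and detected 146 and 159. The first wild type array was thus the dimmest, and its part in the results was not tested beyond leaving it out. Across the 120 miRNAs that exceeded the floor on each of the 4 arrays, levels correlated at r = 0.955 between the wild type arrays and at r = 0.883 between the knockout arrays, as a description over miRNAs, which are not replicates. Between the genotypes they correlated at r = 0.925 in replicate 1 and at r = 0.888 in replicate 2, so the knockout arrays were less alike than either pair. Of the 11 fibroblast and mesenchymal marker miRNAs on the array, 7 to 9 were detected per array. No array detected any of the 8 epithelial, 7 muscle or 15 pluripotent-cell markers or the 1 liver marker, and of 2 endothelial markers 1 was detected on 1 knockout array. Of 7 blood-cell markers miR-155 alone was detected, and of 8 neural markers 2 or 3 per array. The arrays carry miRNA probes, and the loss of Xbp1 mRNA was not checked here. In such bulk RNA, fewer cells of a type and less RNA per cell cannot be told apart.

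After 24 h of tunicamycin, 12 miRNAs (4.69% of those tested) were higher and 8 (3.12%) were lower in XBP1-deficient cells. The largest fall was in miR-31, a miRNA abundant in fibroblasts, and in the opposite arm of its hairpin, and miR-155, an immune and inflammatory regulator, fell as well. The largest rises were in miR-196b, a miRNA of the Hox clusters, and in miR-199b*, from a mesenchymal miRNA hairpin. Of 256 tested miRNAs, 20 passed the test, which is 7.81% (limma, adjusted p under 0.05), and 58 had an unadjusted p under 0.05. The groups did not overlap for any of the 20, and both pairs had the same sign for each. The call of 12 of them held whichever of the 12 arrays was left out, and that of the other 8 was lost without at least 1 array, as given with each. Among the 120 miRNAs above the floor, 44.2% had groups that did not overlap, whether or not they passed.

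The count and its split moved with the scaling. The split was 15 higher and 1 lower when the 75th percentile was taken over all mouse miRNAs, 11 and 3 with quantile normalization, and 2 and 2 with normexp background correction. The median difference of the 120 miRNAs was -0.06, and it was 0.41, 0.10 and -0.34 under those 3 settings, so small differences are relative to such shifts. Of the 20 miRNAs, 10, 9 and 1 still passed. A fit to the 4 arrays alone, with far fewer residual degrees of freedom, called 3 miRNAs, 1 of them among the 20.

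**Figure D1:**
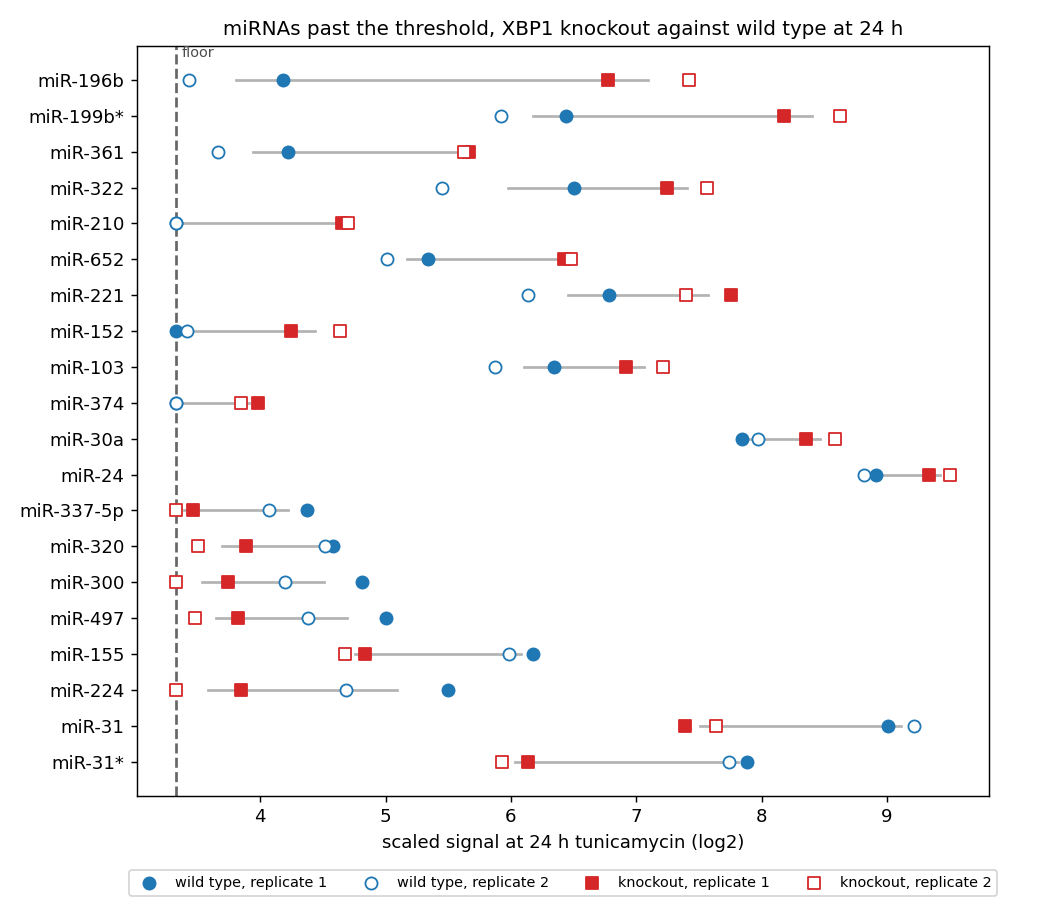
Log2 scaled signal of the 20 miRNAs past the threshold on each of the 4 arrays at 24 h of tunicamycin. Circles are wild type and squares knockout, filled for replicate 1 and open for replicate 2, grey lines join the group means and the dashed line is the floor (3.33). Knockout points lie right of both wild type points in 12 miRNAs and left of both in 8.

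Both strands of the miR-31 hairpin were lower in knockout cells by almost the same amount. miR-31, which restrains invasion and motility programmes in several cell types, read 9.01 and 9.22 on the wild type arrays against 7.39 and 7.64 on the knockout arrays. Its difference was -1.60 (SE 0.13, n = 2 and 2, limma adjusted p = 0.000424), a 3.03-fold lower level. miR-31* read 7.89 and 7.74 in wild type against 6.14 and 5.93 in knockout. The gap between the genotypes was thus many times the gap between experiments for both arms, and all 4 arrays detected them. The difference of miR-31* was -1.78 (SE 0.13, limma adjusted p = 0.000424), and its pairs gave -1.75 and -1.81. miR-31 passed in 23 of 24 alternative settings, from -1.72 to -1.04, missing only with the 4 arrays fitted alone (limma adjusted p = 0.143). Of such settings, 12 left out 1 array each, and the others changed the processing or the fit. Leaving out an array of another group cannot change the 24 h difference, only its spread. The deposited values repeat the software's total gene signal, so those settings are not separate. miR-31* passed in 21 of 24, and its adjusted p was 0.0731 with the percentile over all miRNAs and 0.141 under normexp.

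miR-155 stood at 6.18 and 5.99 in wild type and at 4.84 and 4.68 in knockout, without overlap. It was lower by a log2 difference of -1.33 (SE 0.21, limma adjusted p = 0.00976). The miRNA is made from the BIC transcript and is induced by NF-kB in immune cells and fibroblasts. It was the single blood-cell marker detected, and the other 6 of the 7 were undetected at 24 h. The summed scaled signal of the 7 markers, floor values included, was 134 and 124 in wild type against 88.8 and 85.8 in knockout. That sum includes miR-155 and otherwise holds undetected markers, so it restates the miR-155 difference and is no separate measure of blood cells. Whether blood cells had a part in the result was not tested. The call held in 18 of 24 settings, and was lost with the 75th percentile over all miRNAs (-0.85, adjusted p = 0.249), quantile normalization (-0.83), normexp (-0.60) and the software's total gene signal (-0.32).

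The other miRNAs that fell lay closer to the floor. miR-497, which restrains cyclins with the rest of the miR-15/16 family, read 5.00 and 4.38 in wild type against 3.82 and 3.48 in knockout. Its difference was -1.04 (SE 0.23, limma adjusted p = 0.0418), and with the scan as a block the adjusted p was 0.0769. It was at the floor in knockout at 12 h and the fit shares its spread over all groups, so that standard error is too small. The call was lost without any 1 of 8 of the 12 arrays, with adjusted p up to 0.0905, and at 24 h without the first wild type (0.0851) or the second knockout array (0.0846). Of its 2 probes, 1 separated the genotypes. For the other 19 miRNAs past the threshold every probe placed both knockout arrays on 1 side of both wild type arrays. The tested level is the sum of those same probes, so this is no independent support. Some of these probes read near or below 0. For 1 probe of miR-320 the scaled signals were -0.40 and -0.15 in wild type against -1.16 and -2.07 in knockout.

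miR-320 read 4.58 and 4.52 in wild type against 3.88 and 3.50 in knockout, a difference of -0.86 (SE 0.18, limma adjusted p = 0.0316). It passed in 11 of 23 settings, and leaving out any 1 of 3 arrays at 24 h, both wild type arrays or the second knockout array, ended the call (adjusted p 0.0855, 0.0777 and 0.0644). miR-224 had the values 5.50 and 4.68 in wild type against 3.85 and 3.33 in knockout (adjusted p = 0.0167), but the software detected it on none of the 4 arrays. No fold is given for it. Both untreated knockout arrays were also at the floor, which shrinks the spread behind its adjusted p.

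miR-300 and miR-337-5p belong to the imprinted Dlk1-Dio3 locus, which holds a large miRNA cluster expressed in embryonic and mesenchymal cells. miR-300 read 4.81 and 4.20 in wild type against 3.74 and 3.33 in knockout, a difference of -0.97 (SE 0.21, limma adjusted p = 0.0338). miR-337-5p read 4.38 and 4.07 against 3.46 and 3.33, a difference of -0.83 (SE 0.11, limma adjusted p = 0.00458), with 1 wild type and 1 knockout array detecting it. The second knockout array was at the floor for both, so the sizes are limited by it and the standard errors are too small. The call of miR-300 held in 7 of 22 settings and was lost without any 1 of 8 arrays (adjusted p up to 0.0757), at 24 h the first wild type and the second knockout array. That of miR-337-5p held in 16 of 22.

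Most of the other tested members of that locus had negative differences that did not pass the test. Of the 13 tested members of 42 on the array, 2 fell (beside 3.12% of all tested) and none rose. A negative difference was found in 9, beside 127 of all 256, and 3 were at the floor on all 4 arrays. Their median was -0.34, against 0.00 over all 256 tested miRNAs. miR-136 read 4.76 and 4.10 in wild type against 3.75 and 3.33 in knockout (-0.89, limma adjusted p = 0.0633). No member was detected on all 4 arrays, and the list's median was 0.00 with the software's total gene signal. miR-127, chosen after its values were seen, read 5.68 and 4.65 against 4.47 and 3.33, and its adjusted p was 0.219 without and 0.0120 with the scan as a block.

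Among the miRNAs that rose, miR-196b had the widest separation. It is known to repress Hox mRNAs. Wild type arrays read 4.18 and 3.43, neither called detected, and knockout arrays read 6.78 and 7.42. The level in knockout cells was at least 8.77-fold higher (difference 3.29, SE 0.39, limma adjusted p = 0.00323). Both untreated wild type arrays were at the floor and the fit shares its spread over all groups, so that standard error is too small. The bound on the fold sets the knockout mean against, per wild type array, the higher of its lowest detected signal and the miRNA's own level, the floor included. The call held in 21 of 23 settings, and under normexp the difference was 0.33. Of the other 4 tested miRNAs of the Hox clusters none passed, with miR-10a at 6.69 and 6.13 in wild type against 6.06 and 3.38 in knockout (adjusted p = 0.249). miR-10b read 4.56 and 4.82 in wild type against 7.69 and 3.33 in knockout (adjusted p = 0.922), so the knockout arrays lay on both sides of wild type. Its difference was -1.36 without the first knockout array (limma adjusted p = 0.0120) and 3.003 without the second (0.000820). In untreated cells it read 4.93 and 5.19 in wild type against 8.17 and 8.26 in knockout.

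miR-199b* rose from 6.44 and 5.92 in wild type to 8.18 and 8.62 in knockout, all 4 arrays detecting it. The difference was 2.22 (SE 0.21, limma adjusted p = 0.000924), 4.66-fold, and its pairs gave 1.74 and 2.70. It was the single passenger-named strand to rise among 35 tested, as miR-31* was the single one to fall. Of all tested miRNAs, 4.69% rose and 3.12% fell. The call held in 22 of 24 settings. The related strand miR-199a-3p read 9.68 and 9.18 against 9.95 and 10.71 (0.91, limma adjusted p = 0.0837), not past the threshold. miR-199a-5p did not pass either. It read 7.50 and 7.02 in wild type against 7.50 and 8.40 in knockout, the first knockout array within the wild type range.

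miR-210, widely used as a marker of hypoxia, lay at the floor in wild type on both arrays and read 4.65 and 4.70 in knockout. It was at least 1.70-fold higher (difference 1.35, SE 0.11, limma adjusted p = 0.000424). Values set to the floor do not vary, so that standard error is too small. miR-361 read 4.23 and 3.67 in wild type, undetected, and 5.67 and 5.62 in knockout, at least 2.96-fold higher (difference 1.70, SE 0.24, limma adjusted p = 0.00589). The direction of both changed in an alternative that took median spot signals with normexp background correction and an offset, together called normexp here. Under normexp miR-210 gave -0.33 and miR-361 -0.20, and with the total gene signal miR-210 gave 0.00.

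miR-652 read 5.34 and 5.01 in wild type against 6.42 and 6.48 in knockout, detected on each. Its difference was 1.28 (SE 0.17, limma adjusted p = 0.00458), but -0.058 under normexp and -0.32 with the total gene signal. miR-374 was at the floor in wild type and at 3.98 and 3.84 in knockout, a difference of 0.59 (SE 0.07, limma adjusted p = 0.00447), and was -0.39 under normexp. No fold is given for it, since its bound was 1.00, and with wild type at the floor its standard error is too small. With miR-210, miR-361 and miR-152 these were the miRNAs past the threshold whose sign turned in some setting, and which step of normexp turned it was not tested.

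**Figure D2:**
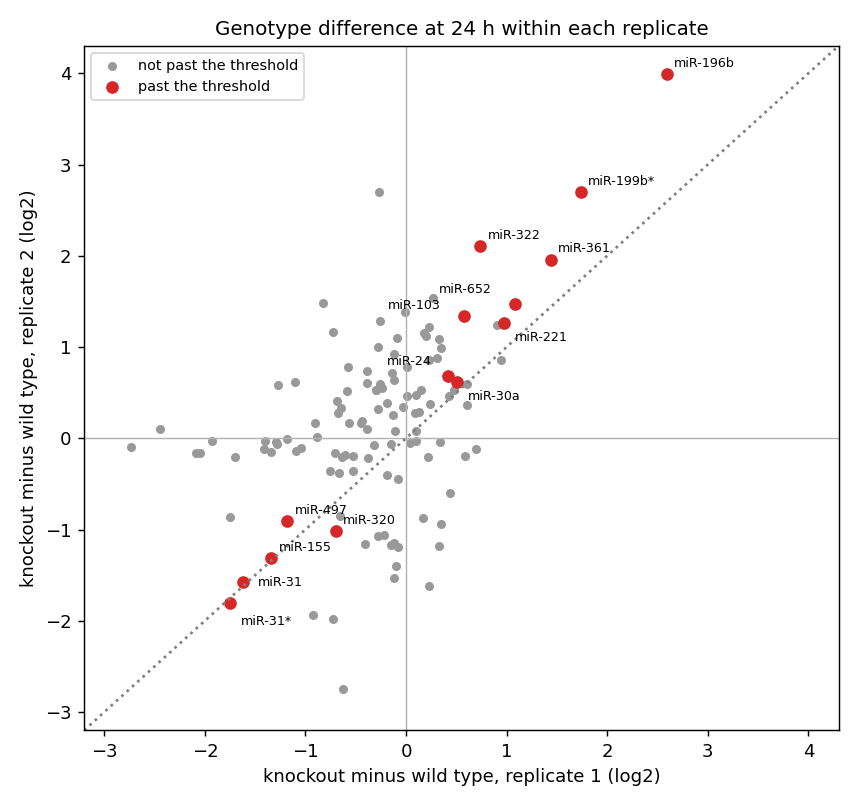
Knockout minus wild type difference (log2) at 24 h in replicate 1 (horizontal) and replicate 2 (vertical), for the 120 miRNAs that exceeded the floor on each array, with the 14 of them past the threshold in red. The dotted line marks equal differences. Red points lie in the quadrants where both pairs have 1 sign, while 46 of the 120 miRNAs had pairs of opposite sign.

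The 2 pairs were far from equal across the miRNAs as a whole. Of the 120 above the floor, both pairs were higher in knockout for 31, both were lower for 43, and 46 had opposite signs. The median difference was -0.23 in replicate 1 and 0.17 in replicate 2, and the median standard deviation between arrays of a group was 0.29 in wild type and 0.34 in knockout. Without the first knockout array 58 miRNAs passed, 19 of the 20 among them, and without the second 38 passed, 15 of the 20 among them. In such fits the lone knockout array is assumed to vary like the other groups. Without the first or the second wild type array 21 and 19 passed, each with 16 of the 20.

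Members of the miR-15/16 seed family, which restrain the cell cycle, split. miR-322 read 6.51 and 5.45 in wild type against 7.24 and 7.56 in knockout, a rise of 1.42 (SE 0.32, limma adjusted p = 0.0418). With the scan as a block the adjusted p was 0.103, and it was up to 0.0923 when 1 array was left out, the call being lost without any 1 of 9 arrays. At 24 h those were the second wild type array, with a difference of 0.90, and the second knockout array, with 1.26. miR-15b read 9.44 and 9.10 against 9.67 and 10.32 (0.73, adjusted p = 0.0799). miR-195, the chromosome 11 neighbour of miR-497, read 3.74 and 3.88 against 3.33 and 3.43 (-0.43, adjusted p = 0.367). Of the 6 family members 1 rose and 1 fell, beside 4.69% and 3.12% of all tested. Their median was 0.20, and it was -0.17 without the second knockout array. Of 6 tested miRNAs of the miR-322 cluster on the X chromosome, the other 5 were at the floor on all 4 arrays.

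Of the 3 miRNAs with the seed CAGUGCA 1 passed, beside 7.81% of all tested. miR-152 was at 3.33 and 3.41 in wild type, undetected, and at 4.25 and 4.63 in knockout. It was at least 1.40-fold higher (difference 1.07, SE 0.16, limma adjusted p = 0.00622), but -0.39 under normexp. With 1 wild type value at the floor, that standard error is too small. miR-148a read 6.93 and 7.11 in wild type against 5.18 and 6.25 in knockout, without overlap, and did not pass (-1.31, SE 0.33, limma adjusted p = 0.0621). Both are described as repressing the DNA methyltransferase DNMT1. The third member, miR-148b, read 3.44 and 3.33 against 3.39 and 3.33, at or near the floor.

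The pairs that lie side by side or differ in 1 base had differences of 1 sign. miR-103, encoded in introns of pantothenate kinase genes, read 6.34 and 5.87 in wild type against 6.92 and 7.22 in knockout, a rise of 0.96 (SE 0.17, limma adjusted p = 0.0155). miR-107 read 6.44 and 6.04 against 6.79 and 7.02 and lay just outside the threshold (0.67, adjusted p = 0.0504). Under normexp miR-103 gave 0.05. miR-221, which represses the cell cycle inhibitor p27, read 6.78 and 6.13 in wild type against 7.76 and 7.39 in knockout. It rose by 1.12 (SE 0.26, limma adjusted p = 0.0455), a call that held in 9 of 24 settings and was lost without any 1 of 10 arrays. At 24 h those were the second wild type array (0.80, adjusted p = 0.162) and the first knockout array (0.94, adjusted p = 0.0894). miR-222 was at the floor in wild type and at 3.84 and 3.86 in knockout (0.52, adjusted p = 0.195, and 0.0384 with the scan as a block).

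The smallest rises above the floor were in miR-24 and miR-30a. miR-24, which is made from both of the miR-23/27/24 clusters, read 8.92 and 8.82 in wild type against 9.33 and 9.51 in knockout, a rise of 0.55 (SE 0.09, limma adjusted p = 0.0135). Its cluster partners miR-23a and miR-27a had differences of 0.50 and 0.60 that passed only with the block (adjusted p = 0.0211 and 0.0292). miR-24 passed in 20 of 24 settings, and its adjusted p was 0.0654 with the percentile over all miRNAs and 0.0521 without the second wild type array. miR-30a read 7.84 and 7.97 against 8.35 and 8.59, a rise of 0.56 (SE 0.10, limma adjusted p = 0.0155), and gave 0.11 under normexp and 0.04 with the total gene signal. Without the first wild type array its adjusted p was 0.0657. The other 4 members of the miR-30 family did not pass, with differences from -0.14 to 0.29.

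With the scan as a block 25 miRNAs passed, 18 of the 20 and 7 others. Those 7 were miR-23a, miR-27a, miR-127, miR-140, miR-143, miR-222 and miR-342-3p. miR-140, a cartilage and mesenchymal miRNA, read 10.03 and 9.41 in wild type against 9.10 and 7.47 in knockout, a difference of -1.43 (SE 0.55, limma adjusted p = 0.198 without and 0.0384 with the block). Its other arm, miR-140*, read 7.77 and 7.56 against 7.04 and 5.58 (-1.36, adjusted p = 0.100). miR-143 read 4.49 and 4.11, undetected, against 5.40 and 5.36 (1.07, adjusted p = 0.0633 and 0.0384). miR-342-3p, chosen after its values were seen, had the largest difference just outside the threshold, 2.15 (SE 0.51, limma adjusted p = 0.0504, and 0.0229 with the block).

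**Figure D3:**
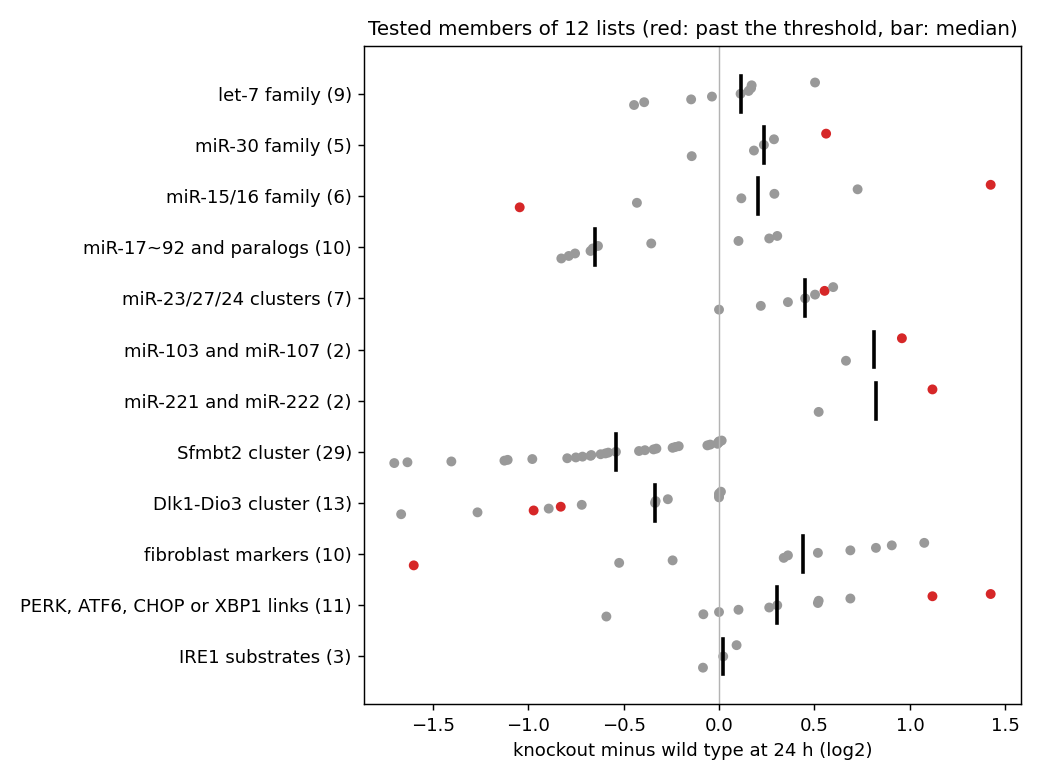
Knockout minus wild type difference (log2) at 24 h for the tested members of 12 lists of miRNAs, with the number tested in brackets. Each point is 1 miRNA, red where past the threshold, and the black bar is the list's median. The Sfmbt2 and miR-17~92 lists sit mostly below 0 with no member past the threshold, and the 3 IRE1-linked miRNAs sit near 0.

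MicroRNAs described as linked to the unfolded protein response were looked at next. Of the miRNAs described as substrates of IRE1's nuclease, 3 were tested and none passed. miR-125b-5p read 11.16 and 10.69 in wild type against 10.88 and 11.01 in knockout, a difference of 0.02 with a 95% interval from -0.34 to 0.38. It was 0.46 and passed with quantile normalization (adjusted p = 0.0310). The difference of miR-96 was 0.09 (-0.40 to 0.58). That of miR-34a, -0.08 (-0.81 to 0.65), averaged pairs of opposite sign, since it read 7.62 and 7.55 in wild type against 8.05 and 6.95. It was -0.64 without the first knockout array (limma adjusted p = 0.00421) and 0.47 without the second, past the threshold each time. Differences within those intervals are not excluded. Of 11 tested miRNAs with described links to PERK, ATF6, CHOP or XBP1, miR-221 and miR-322 rose, beside the 4.69% that rose of all tested, and none fell. At an unadjusted p under 0.05, 5 of the 11 were higher, beside 31 of all 256. The median was 0.31, and -0.11 under normexp. miR-93, of the miR-106b~25 cluster that PERK signalling is described as repressing, read 6.33 and 6.30 against 6.57 and 6.67 (0.31, limma adjusted p = 0.195).

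The miR-17~92 cluster and its paralogs promote proliferation. None of the 10 tested miRNAs passed, beside 7.81% of all tested. A negative difference was found in 7, beside 127 of all 256, and their median was -0.65. miR-92a read 9.48 and 9.47 in wild type against 9.20 and 8.40 in knockout, and miR-19b read 9.75 and 9.94 against 9.63 and 8.80. The second knockout array was thus the low one, and the list's median was -0.12 in replicate 1 and -1.11 in replicate 2. It stayed negative in all 22 alternative settings, from -1.06 to -0.15. In the large cluster in an intron of Sfmbt2, 26 of 29 tested members had a negative difference, beside 127 of all 256. None passed, beside 7.81% of all tested, and the median was -0.54. Here the first knockout array was the low one, with medians of -1.10 in replicate 1 and -0.05 in replicate 2, and the median was 0.15 without that array.

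The let-7 family, which restrains proliferation, was detected on each array and did not pass in any of its 9 members. let-7b read 10.98 and 10.74 in wild type against 10.45 and 10.37 in knockout (-0.45, limma adjusted p = 0.0633), and let-7i read 9.77 and 9.32 against 9.68 and 10.42 (0.50, adjusted p = 0.305). The family's median was 0.11, with -0.39 in replicate 1 and 0.51 in replicate 2. Of the 6 tested miRNAs described as NF-kB targets, miR-31 and miR-155 fell, beside the 3.12% that fell of all tested, and none rose. The list had no common direction, with 3 positive and 2 negative differences and a median of 0.17. miR-146b, not past the threshold, read 4.50 and 3.33 in wild type against 4.94 and 5.05 in knockout. miR-21 read 13.92 and 13.35 against 14.06 and 13.88 (0.34, adjusted p = 0.455). Among the 10 tested fibroblast markers miR-31 alone passed, beside 7.81% of all tested. The difference was positive in 7 of them and negative in 3, beside 80 positive and 127 negative of all 256. Their median was 0.44, with -0.13 in replicate 1 and 0.96 in replicate 2. miR-22 read 11.21 and 11.06 in wild type against 10.54 and 10.69 in knockout (-0.52, adjusted p = 0.0633).

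**Figure D4:**
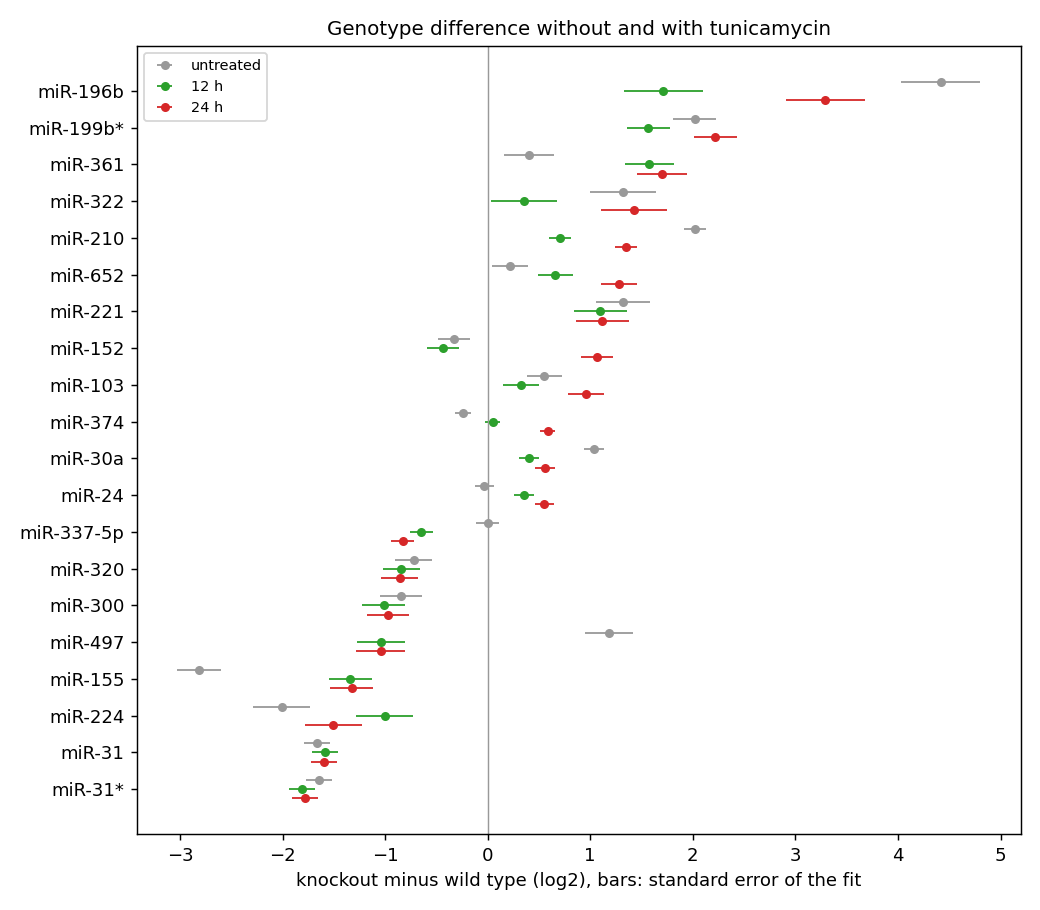
Knockout minus wild type difference (log2) of the 20 miRNAs past the threshold at 24 h, in untreated cells (grey), at 12 h (green) and at 24 h (red) of tunicamycin. Bars are the standard error of the fit over 12 arrays, 2 per group. The 3 points of miR-31 and of miR-31* lie together near -1.6 and -1.8, whereas miR-497 lies above 0 untreated and below 0 with tunicamycin.

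The 24 h differences were then set beside those without tunicamycin and at 12 h, measured on other arrays. Untreated knockout and wild type cells differed in 32 miRNAs (12.5%), 13 higher and 19 lower, and cells at 12 h in 13 (5.08%), 4 higher and 9 lower (limma). Of the 12 miRNAs higher at 24 h, 6 were also higher untreated, 46.2% of the 13, and 3 were also higher at 12 h. Of the 8 lower at 24 h, 6 were also lower untreated, 31.6% of the 19, and 6 were lower at 12 h, 66.7% of the 9. By sign alone, 9 of the 12 were above 0 untreated, as were 68 of the 256 tested miRNAs, and 6 of the 8 were below 0, as were 128. At 12 h, 11 of the 12 were above 0, as were 69 of the 256, and all 8 were below 0, as were 154.

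Several genotype differences were also measured without tunicamycin. That of miR-31 was -1.66 untreated, -1.59 at 12 h and -1.60 at 24 h, and that of miR-199b* was 2.02, 1.57 and 2.22. miR-196b was at the floor in untreated wild type cells and at 7.74 and 7.75 in untreated knockout cells. At 12 h it read 4.17 and 4.99 in wild type against 6.46 and 6.13 (adjusted p = 0.0529). miR-210 read 4.85 and 4.81 in untreated wild type against 6.83 and 6.87, and it was lower at 24 h than untreated in both genotypes (limma adjusted p = 0.000123 and 1.6e-05). The untreated arrays were on another slide, so tunicamycin and slide cannot be told apart there. Its wild type level at 24 h was the floor. miR-221, miR-322, miR-30a, miR-300, miR-320 and miR-224 also passed untreated in their 24 h direction.

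Whether the 24 h difference departed from the untreated one was tested as a difference of differences. It did for 12 of 256 miRNAs (4.69%), 7 with a positive and 5 with a negative value (limma, 30 at an unadjusted p under 0.05). Untreated cells were on the other slide, so tunicamycin and slide cannot be told apart in this test. Leaving out a 24 h knockout array gave 44 (replicate 1) or 20 (replicate 2), and leaving out either 12 h knockout array gave 7. miR-497 changed direction. It read 5.09 and 5.04 in untreated wild type and 6.23 and 6.27 in untreated knockout, so its genotype difference went from 1.18 to -1.04, a change of -2.22 (SE 0.33, limma adjusted p = 0.0103). It was at the floor in knockout at 12 h. miR-195 went the same way, from 1.29 to -0.43 (-1.72, SE 0.31, adjusted p = 0.0266).

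miR-155 kept its direction with a smaller gap. Untreated wild type cells read 6.21 and 6.27 and untreated knockout cells 3.44 and 3.41, a difference of -2.82. At 24 h knockout cells read 4.84 and 4.68 and wild type cells 6.18 and 5.99, so the change was 1.49 (SE 0.30, limma adjusted p = 0.0361). miR-152 was 5.99 and 6.11 in untreated wild type and 5.63 and 5.80 in untreated knockout, and near the floor with tunicamycin except in knockout at 24 h. Its change was 1.40 (SE 0.22, adjusted p = 0.0125). miR-374 (0.82) and miR-337-5p (-0.83) passed as well, both with values at or near the floor. miR-337-5p had no untreated genotype difference, so its change restates its 24 h difference.

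No miRNA passed in the test of the 24 h against the 12 h difference (limma, 10 at an unadjusted p under 0.05). The nearest was miR-152 (adjusted p = 0.0650), which lay at the floor in knockout at 12 h. That 0 turned into 43 calls when the 24 h knockout array of replicate 1 was left out, and into 22 when the 12 h wild type array of replicate 1 was.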

How the data were processed

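Total RNA was labelled with Cy3 and hybridised to 1-colour Agilent miRNA arrays, per the labels' protocols. Per the file headers, Agilent Feature Extraction 10.7.1.1 made the deposited spot intensity values, which were not normalized between arrays. The log2 table that the authors deposited matched the software's total signal per miRNA, once logged, within 1.15e-06. Outlier spots were left out. Each of the 12 arrays was scaled to its 75th percentile over 95 mouse miRNAs detected on all arrays, the floor was a scaled signal of 10.0, the 5th percentile of detected signals, and 256 of 611 mouse miRNAs were tested, those that both arrays of some group detected. limma 3.58.1 in R 4.3.3 fitted 6 group means (6 residual degrees of freedom, eBayes with trend), with Benjamini-Hochberg adjustment over the 256, and was tested on simulated data. Replicate numbers shared a scan within each treatment, per the file headers, and the correlation of their deviations was 0.867 untreated, 0.415 at 12 h and 0.522 at 24 h. Therefore a fit with the scan as a block was an alternative. The normexp alternative used median spot signals with an offset of 50. Eligible to be named were all miRNAs past the threshold, the 8 largest non-overlapping differences in each direction, up to 4 members per list by p, and up to 8 from the difference tests. Those past the threshold are all given, and of the rest the text gives only some. The members and lists were chosen with earlier results of these data known. The number of arrays and signals near the floor limit the precision, which no count of reads sets here. The fit shares its spread over the 6 groups, so floor values in any group make standard errors and adjusted p-values too small. Sequences were matched by name, 23 of 25.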

Additional observations from a re-analysis of the deposited data

Results flagged for a closer look

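In 12 miRNAs the genotype difference at 24 h departed from that of untreated cells in limma's test of the difference itself. The change in log2 difference was 1.40 for miR-152, 1.49 for miR-155, 0.82 for miR-374, -0.83 for miR-337-5p, -1.72 for miR-195 and -2.22 for miR-497, whose levels are given above. It was 1.35 for miR-335-5p, which read 4.73 and 4.89 in untreated wild type cells and was at the floor in untreated knockout. For miR-532-5p it was 1.45 and for miR-532-3p 0.67, both hosted with other miRNAs in an intron of the chloride channel gene Clcn5. It was -1.23 for miR-503 and 0.22 for miR-542-5p, of the X-linked miR-322 cluster. For miR-9, a neural miRNA, it was -1.17. For miR-9, miR-503, miR-532-3p and miR-542-5p no 24 h array exceeded the floor, and the value equals the untreated difference with its sign turned. With 1 array left out, the 24 h difference ran from 0.00 to 0.48 for miR-532-5p and from -0.26 to 0.00 for miR-335-5p. Their changes thus came mostly from the untreated difference too. That of miR-337-5p, which had no untreated difference, restates its 24 h difference.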

How the results depend on the processing

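The count of 20 miRNAs at 24 h was 4 with normexp background correction, 13 with no detection filter and 3 with the 4 arrays fitted alone, and it ran from 16 to 58 when 1 array was left out. The 12 miRNAs whose difference changed from untreated were 2 with normexp, 24 with the software's total gene signal, 24 with the deposited values, 7 with no detection filter, 1 among miRNAs detected on all 12 arrays and 2 with floor values left out. That count ran from 7 to 44 with 1 array left out, with 7 without either knockout array at 12 h, and 44 and 20 without the first and the second knockout array at 24 h. The count of 0 for 24 h against 12 h was 2 with normexp, 7 with the total gene signal, 7 with the deposited values and 2 with eBayes without trend, and ran from 0 to 43 with 1 array left out. The replicate block (scan) gave 25, 11 and 0 for the 3 counts. Values that reversed were, under normexp, miR-152 (-0.39), miR-210 (-0.33), miR-361 (-0.20), miR-374 (-0.39) and miR-652 (-0.058), and with the total gene signal and the deposited values miR-652 (-0.32). The cause was not tested. The other settings kept each count within 1.5 times. Of the 20 miRNAs past the threshold, none passed in every setting. Signals near the floor limit the size of the differences, and 2 arrays per group limit the precision.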
